A study of Mus musculus with 9 samples.

Results

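Collagen chains are the products of the genes whose mouse symbol has the form Col, a number, the letter a and a number, such as Col1a1. They were found in the deposited expression table by matching its Ensembl gene identifiers to mouse symbols. The rule gave 44 genes of 52550 rows, on 15 chromosomes. Of these, 25 reached 1 FPKM (fragments counted per gene, scaled by its length and by the library's total) in at least 3 of the 9 libraries and entered the tests, beside 13990 genes in all. The chains fall into 11 fibrillar chains (8 tested), 6 type IV chains of basement membrane (3 tested), 3 short-chain network chains (1 tested), 6 beaded filament chains (3 tested), 1 anchoring fibril chain (tested), 9 fibril-associated chains of the FACIT class (5 tested), 2 multiplexins (both tested), 4 transmembrane chains (2 tested) and 2 others (none tested). The last tested chains, Col27a1, Col9a3 and Col17a1, reached 1 FPKM in 3 libraries each, and the first chain left out, Col13a1, did so in 1. Col17a1 reached it in the 3 LY500307+PD-1 libraries alone, and Col23a1 in those and Control replicate 2. Both therefore entered the tests through LY500307+PD-1 and had to be high there, so their values in that group are given as a description, and their place in any count is no support. Col9a3 reached 1 FPKM in PD-1 replicates 2 and 3 and in Control replicate 3. It entered through PD-1, so a higher value there is no support either.

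The libraries are labelled as cells of 4T1, an established mouse mammary carcinoma line, and form 3 groups of 3: Control, PD-1, and LY500307+PD-1, in which the cells also received LY500307, an agonist of estrogen receptor beta. All groups share the 4T1 label, which stands for a single cell line. The labels name PD-1 as a treatment without saying which agent it was, and give no dose, time, mouse strain or age, and do not tell culture dishes from tumours as the source of the RNA. That replicates are separate cultures or animals is not stated, and the spread behind each p-value may therefore be technical. The question set by the series' design is how RNA levels under each treatment compare with Control.

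A collagen molecule is a triple helix wound from 3 chains, which may be copies of a single chain or partners encoded by different genes. Fibrillar collagens form the load-bearing fibrils of connective tissue and are made mainly by fibroblasts, whereas type IV collagen forms the sheet-like network of basement membranes under epithelia and around blood vessels. In mammary tumours, fibrillar collagen is laid down largely by stromal cells and is known for stiffening the tissue, and basement membrane is the layer that invading carcinoma cells cross.

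Of 8 epithelial markers all but Cldn7 were high in every library, with Krt18 (a keratin of simple epithelia) between 621 and 1597 FPKM and Epcam between 98.5 and 281 FPKM. Cldn7 reached at most 4.66 FPKM and was listed at 0 in LY500307+PD-1 replicate 2. Markers of other cell types were present too. The summed level of 10 fibroblast markers ran from 60.9 to 108 FPKM, that of 7 macrophage markers from 711 to 2348 FPKM and that of 10 endothelial markers from 41.2 to 94.9 FPKM, with none of these 27 markers at 0 in any library. LY500307+PD-1 replicate 2 stood apart, with 645 FPKM over 7 keratinocyte markers (44.0 to 145 in the others), 109 over 6 skeletal muscle markers (13.8 to 29.5) and 37.2 over 5 adipocyte markers (0 to 1.34). In RNA of a mixture, fewer cells of a type and less RNA per cell cannot be told apart.

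Levels of the 44 chains spanned from 376 FPKM to 0. Col1a1 was the most abundant at a mean of 233 FPKM, followed by Col1a2 at 79.2, Col4a1 at 76.9, Col6a1 at 63.2, Col4a2 at 60.5 and Col3a1 at 59.6 FPKM. The chains Col9a1, Col19a1 and Col22a1 were listed at 0 in every library, Col9a2 and Col26a1 were above 0 in 1 library each, and Col10a1 in 2. The cartilage chains of types II, IX, X and XI other than Col11a2 and Col9a3 all stayed below 0.2 FPKM in every library. Among cartilage and bone markers, Acan, Matn1 and Sp7 were also listed at 0 in every library, and only Ibsp, a bone sialoprotein, was above 0 in all 9, at 1.26 to 75.5 FPKM.

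**Figure D1:**
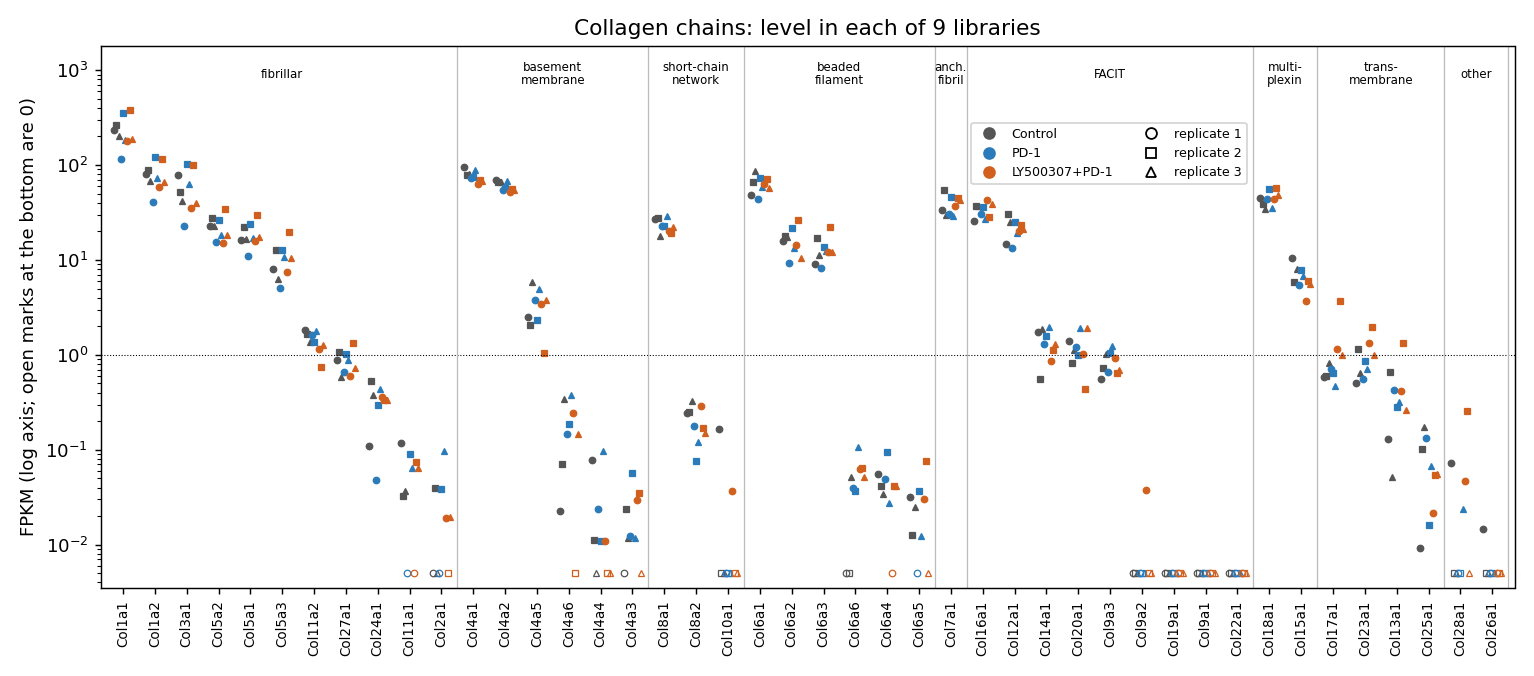
Level in FPKM (logarithmic vertical axis) of each of the 44 collagen chains in each of the 9 libraries, grouped by class and ordered within a class by mean level. Colours give the group and shapes the replicate; open marks at the bottom are values of 0, and the dotted line is 1 FPKM. Col1a1 lies at the top between 117 and 376 FPKM, and Col9a1, Col19a1 and Col22a1 lie at 0 in all libraries.

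Summed over the 44 chains, collagen made up 845, 917 and 787 FPKM in Control replicates 1 to 3, 558, 1087 and 771 in PD-1, and 697, 1113 and 734 in LY500307+PD-1. PD-1 replicate 1 was the lowest and replicate 2 of both treated groups the highest, so each treated group spread around the Control values. Control averaged 850 ± 65.3 FPKM, PD-1 averaged 805 ± 266 and LY500307+PD-1 averaged 848 ± 230 (SD, n = 3 each). These sums amounted to between 0.151% and 0.312% of all FPKM in a library.

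Fibrillar chains carried most of that spread. Their sum was 443, 470 and 361 FPKM in Control, 214, 642 and 371 in PD-1, and 313, 677 and 341 in LY500307+PD-1. The highest library was 3.16-fold above the lowest, and the groups overlapped. The share of fibrillar chains among collagen FPKM moved with the sum, from 38.3% in PD-1 replicate 1 to 60.8% in LY500307+PD-1 replicate 2. The fibroblast markers summed to 60.9, 98.0 and 80.3 FPKM in Control, 61.3, 80.0 and 90.1 in PD-1, and 69.4, 108 and 75.6 in LY500307+PD-1. Their order differed from that of the fibrillar sum, with Control replicate 1 lowest and PD-1 replicate 2 below PD-1 replicate 3, and their part in the spread was not tested.

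Col1a1 encodes the alpha 1 chain of type I collagen, of which a type I molecule holds a pair (chr11:94936224-94953042, plus strand, GRCm38). It stood at 233, 263 and 204 FPKM in Control, 117, 352 and 185 in PD-1, and 179, 376 and 187 in LY500307+PD-1. The Control values lay close together, while each treated group held a library above all 3 of them and a pair below. Its partner Col1a2, the alpha 2 chain (chr6:4504814-4541544, plus strand), was also lowest in PD-1 replicate 1, but highest in PD-1 replicate 2, at 80.7, 88.4 and 67.1 FPKM in Control, 40.6, 122 and 73.3 in PD-1, and 58.9, 115 and 65.8 in LY500307+PD-1. The ratio of Col1a1 to Col1a2 in FPKM stayed between 2.53 and 3.26 in all 9 libraries, although each chain varied over 3-fold.

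Col3a1, the chain of type III collagen, which forms fibrils with type I in soft tissue, varied most among the 6 most abundant chains, 4.52-fold between libraries (chr1:45311538-45349706, plus strand). Its levels were 79.0, 52.0 and 42.2 FPKM in Control, 22.7, 103 and 63.1 in PD-1, and 35.2, 99.4 and 39.6 in LY500307+PD-1. As for Col1a1 and Col1a2, PD-1 replicate 1 was lowest and replicate 2 of the treated groups held the 2 highest values. Col5a2, a chain of type V collagen, which sets the width of type I fibrils, was at 23.0, 27.7 and 22.5 FPKM in Control, 15.4, 26.1 and 18.3 in PD-1, and 14.9, 34.3 and 18.5 in LY500307+PD-1. It lies tail to tail with Col3a1 at a distance of 24.6 kb, at chr1:45374321-45503282 on the minus strand.

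The other tested fibrillar chains were Col5a1 at 11.0 to 29.4 FPKM, Col5a3 at 5.12 to 19.9, Col11a2 at 0.751 to 1.84 and Col27a1 at 0.580 to 1.33. Col5a1 and Col5a3 were lowest in PD-1 replicate 1 and highest in LY500307+PD-1 replicate 2, as Col1a1 was. Col11a2, a chain of the type XI collagen of cartilage fibrils, went the other way and was lowest in LY500307+PD-1 replicate 2. Of the untested chains, Col24a1 reached 0.531 FPKM, Col11a1 0.116 and Col2a1, the cartilage collagen, 0.0968.

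**Figure D2:**
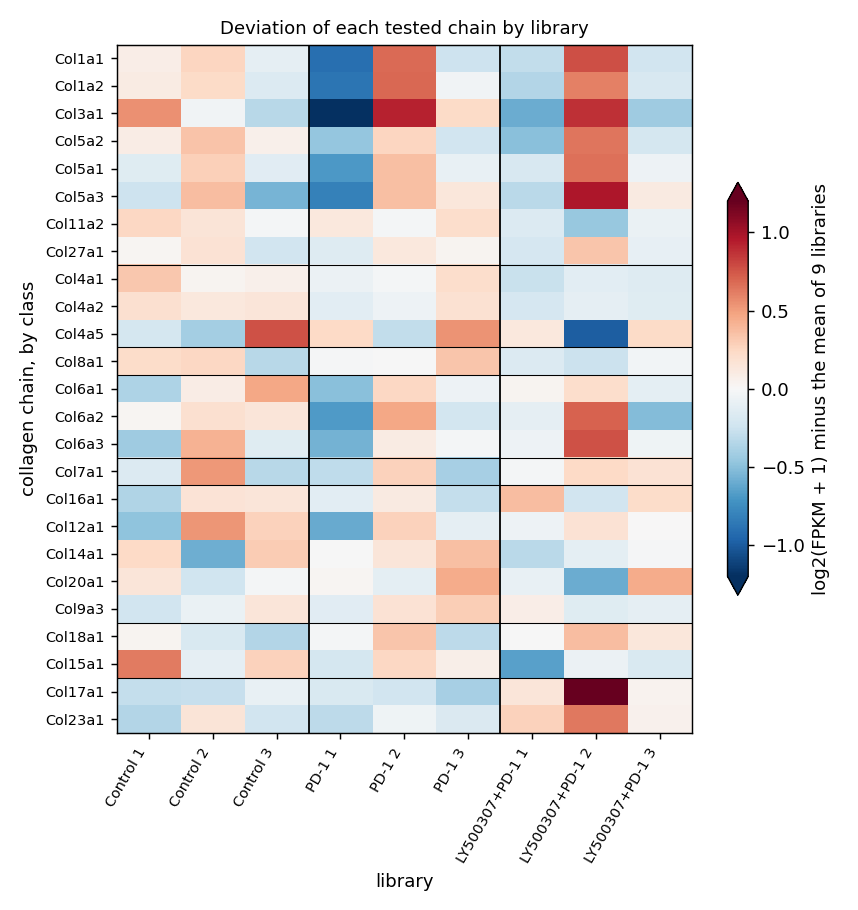
Deviation of each of the 25 tested chains from its own mean over the 9 libraries, on the log2(FPKM + 1) scale (colour, red above and blue below), with libraries in columns and chains in rows by class. The first 6 fibrillar rows are red in LY500307+PD-1 replicate 2, where Col11a2 and Col4a5 are blue, and Col17a1 is beyond the end of the colour scale there.

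Fibrillar genes also held the extremes of base composition among collagen promoters. RefSeq on GRCm38.p6 gave promoter sequences for 35 of the 44 chains (38 starts), and in the 250 bases before the start the share of G and C ran from 35.2% at Col3a1 to 76.4% at Col5a1, against a median of 52.4% over 32851 mouse promoters. Both upstream stretches are shown because they bound that range while the levels of both genes were lowest in PD-1 replicate 1. The first lies at chr1:45311288-45311537 and the second at chr2:27886175-27886424, both on the plus strand. Capitals mark TATAAA, the motif of the TATA box, in the first and GGGCGG, a GC box motif, or its reverse complement in the second.
Col3a1: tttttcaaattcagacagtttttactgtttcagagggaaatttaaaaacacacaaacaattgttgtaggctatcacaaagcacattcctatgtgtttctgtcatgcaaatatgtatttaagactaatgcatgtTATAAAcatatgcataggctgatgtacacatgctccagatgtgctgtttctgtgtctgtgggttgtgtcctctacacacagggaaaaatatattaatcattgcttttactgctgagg
Col5a1: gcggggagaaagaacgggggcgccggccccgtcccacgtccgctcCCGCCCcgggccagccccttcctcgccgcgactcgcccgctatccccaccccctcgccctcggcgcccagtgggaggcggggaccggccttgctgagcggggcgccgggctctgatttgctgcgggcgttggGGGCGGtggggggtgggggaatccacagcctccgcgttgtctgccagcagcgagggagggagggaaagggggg
Searched on both strands, TATAAA was in 5 of the 38 collagen promoters and in 12.4% of all promoters, CCAAT in 13 and in 33.8%, and GGGCGG in 22 and in 32.7%. A match is a run of letters and not a site shown to be used.

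Chains that assemble in a single trimer were compared across the 9 libraries, for the 5 of 11 listed pairs whose chains were both tested. The list did not hold every pair within a type. Col6a2 was not compared with Col6a3, and Col5a3 was not compared with any chain. Col1a1 and Col1a2 gave Pearson's r = 0.983 (exact permutation test, two-sided, p = 5.79e-05, adjusted over the 5 pairs 0.000145) and Spearman's rho = 0.933 (exact p = 0.00075, adjusted 0.00187). For Col4a1 and Col4a2 r was 0.918 (exact p = 1.38e-05, adjusted 6.89e-05) and rho 0.983 (exact p = 4.96e-05, adjusted 0.000248). Without the 2 libraries farthest from the median of the first chain, these became 0.967 (exact p = 0.00159, adjusted 0.00397) and 0.914 (exact p = 0.000794, adjusted 0.00397).

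The type V and type VI pairs that were compared were less close. Col5a1 and Col5a2 gave r = 0.876 (exact p = 0.00242, adjusted 0.00403) and rho = 0.817 (exact p = 0.0108, adjusted 0.0179), but without PD-1 replicate 1 and LY500307+PD-1 replicate 2 the r of 0.748 had an exact adjusted p of 0.0799 over the 7 that remained. Col6a1 and Col6a2 gave r = 0.704 (exact p = 0.0333, adjusted 0.0417) and rho = 0.783 (exact p = 0.0172, adjusted 0.0215), and without Control replicate 3 and PD-1 replicate 1 the r of 0.65 had an exact adjusted p of 0.108. Col6a1 and Col6a3 did not pass, with r = 0.613 (exact p and adjusted p = 0.0769) and rho = 0.55 (exact p and adjusted p = 0.133), nor did they without the same 2 libraries, at r = 0.782 (exact adjusted p = 0.0615). Differences between the correlations of the pairs were not tested. Libraries were permuted without regard to group, so shifts shared by a group enter these values. Chains of different trimers were not correlated, so a high r cannot be read as particular to partners.

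**Figure D3:**
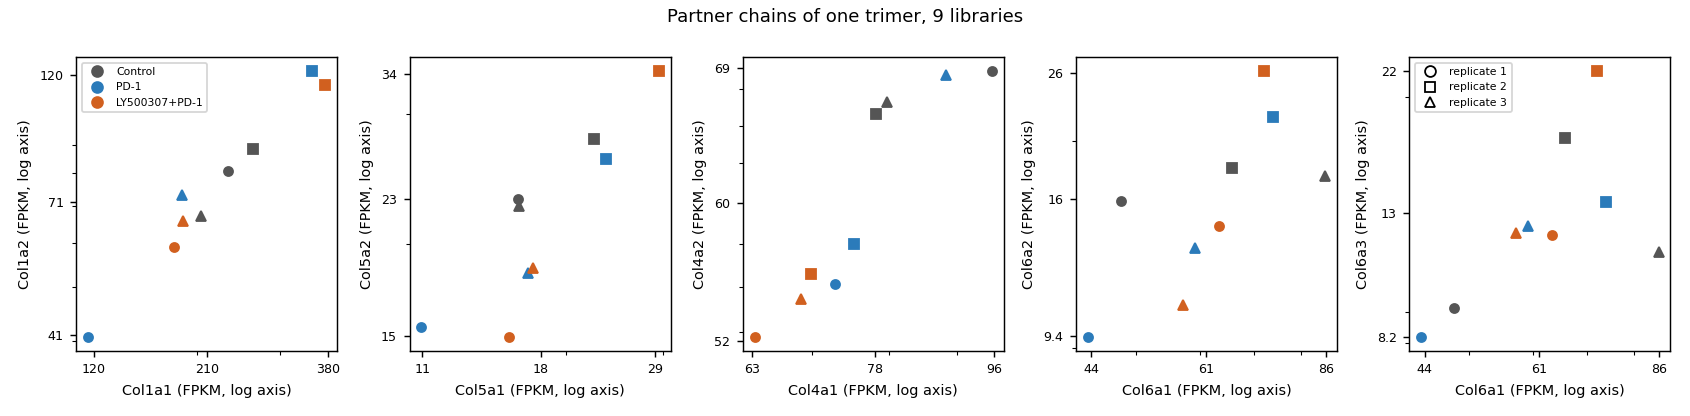
FPKM of both chains (logarithmic axes) for the 5 pairs of partner chains, 1 point for each of the 9 libraries, with groups by colour and replicates by shape. Type I and type IV partners lie near a line, with r of 0.983 and 0.918 on the log2(FPKM + 1) scale, and the type VI pairs shown scatter more.

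The sum of the type IV chains varied 1.40-fold between libraries, against 3.16-fold for the fibrillar sum. The sum was 167, 146 and 153 FPKM in Control, 132, 135 and 162 in PD-1, and 119, 127 and 127 in LY500307+PD-1. All LY500307+PD-1 libraries lay below all libraries of both other groups, whereas PD-1 overlapped with Control. Of all genes tested, 4.33% lay wholly below Control in LY500307+PD-1, and 4.06% lay wholly below PD-1. Col4a1 and Col4a2, the chains of the type IV network found in nearly all basement membranes, made up almost all of the sum, which is therefore no result apart from theirs. They varied 1.51-fold and 1.32-fold, whereas Col4a5 varied 5.64-fold.

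Both genes lie head to head on chromosome 8, Col4a1 at chr8:11198423-11312826 on the minus strand and Col4a2 at chr8:11312805-11449287 on the plus strand. Their annotated ends overlap by 22 bases, chr8:11312805-11312826, which are shown because a divergent start joins both partners of this trimer. Capitals mark the first transcribed base of Col4a2 at the left end and, on the opposite strand, that of Col4a1 at the right end.
Col4a2 and Col4a1: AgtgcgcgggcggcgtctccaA
Reads within these bases can be assigned to one gene only by strand, and whether the authors' counting used strand is not given in the sources used here.

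Col4a1 measured 95.7, 78.1 and 79.8 FPKM in Control, 72.8, 75.2 and 88.3 in PD-1, and 63.3, 69.8 and 68.6 in LY500307+PD-1. Col4a2 measured 68.8, 65.7 and 66.6 FPKM in Control, 55.1, 57.5 and 68.5 in PD-1, and 52.2, 55.7 and 54.3 in LY500307+PD-1. For both chains the LY500307+PD-1 libraries lay below every Control library. Against PD-1 the same held for Col4a1, but Col4a2 overlapped, with PD-1 replicate 1 below LY500307+PD-1 replicate 2. Their ratio in FPKM stayed between 1.19 and 1.39.

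The remaining type IV chains, which replace the common ones in kidney, lung, skin and smooth muscle basement membranes, were low. Col4a5 was at 2.50, 2.06 and 5.87 FPKM in Control, 3.80, 2.31 and 4.90 in PD-1, and 3.43, 1.04 and 3.74 in LY500307+PD-1, with overlapping groups and replicate 2 lowest in each. Col4a6, which lies head to head with it on chromosome X at a distance of 1308 bases, reached at most 0.374 FPKM and was listed at 0 in LY500307+PD-1 replicate 2. Col4a3 and Col4a4, head to head on chromosome 1 at a distance of 71 bases, stayed at or below 0.0983 FPKM.

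The multiplexins are proteoglycan collagens of basement membranes. Col18a1, whose C-terminal fragment is endostatin (chr10:77052178-77166548, minus strand), was at 45.0, 38.7 and 34.3 FPKM in Control, 43.4, 55.6 and 35.2 in PD-1, and 43.8, 57.3 and 48.6 in LY500307+PD-1. LY500307+PD-1 overlapped with Control through Control replicate 1 alone, and PD-1 overlapped with both. Col15a1, a chain at the outer face of muscle and vessel basement membranes (chr4:47208161-47313167, plus strand), was at 10.4, 5.88 and 7.95 FPKM in Control, 5.41, 7.78 and 6.80 in PD-1, and 3.72, 6.06 and 5.53 in LY500307+PD-1. Control replicate 2 lay below LY500307+PD-1 replicate 2, so these groups overlapped too.

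Type VI collagen forms beaded filaments around cells. Col6a1 was at 47.9, 65.8 and 85.8 FPKM in Control, 43.6, 73.9 and 59.2 in PD-1, and 63.4, 72.0 and 57.2 in LY500307+PD-1. Col6a2, 85.2 kb away on chromosome 10, was at 15.8, 18.0 and 17.4 FPKM in Control, 9.36, 21.9 and 13.2 in PD-1, and 14.4, 26.2 and 10.6 in LY500307+PD-1. The 2 genes differed in their highest library, which was Control replicate 3 for Col6a1 and LY500307+PD-1 replicate 2 for Col6a2. Col6a3, the longest chain of the trimer, was at 9.12, 17.2 and 11.3 FPKM in Control, 8.18, 13.5 and 12.4 in PD-1, and 12.0, 22.1 and 12.1 in LY500307+PD-1. Groups overlapped for all 3 chains, and Col6a4, Col6a5 and Col6a6 stayed at or below 0.108 FPKM.

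Col7a1 encodes the anchoring fibrils that tie the epidermal basement membrane to the dermis (chr9:108953586-108984875, plus strand). It was at 34.0, 55.2 and 30.0 FPKM in Control, 30.6, 46.2 and 28.7 in PD-1, and 37.5, 45.2 and 43.2 in LY500307+PD-1. Replicate 2 was highest in each group, and the groups overlapped.

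FACIT chains sit on the surface of fibrils. Col16a1 was at 25.8, 37.4 and 37.0 FPKM in Control, 30.4, 36.1 and 27.1 in PD-1, and 43.3, 28.2 and 39.1 in LY500307+PD-1. Its lowest LY500307+PD-1 library was replicate 2, where the sum of the fibrillar chains was highest. Col12a1 was at 14.6, 30.6 and 25.4 FPKM in Control, 13.3, 25.4 and 19.2 in PD-1, and 20.0, 23.6 and 20.9 in LY500307+PD-1, with every treated library within or just below the Control range.

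Col14a1, a FACIT of mature connective tissue, was at 1.74, 0.551 and 1.86 FPKM in Control, 1.31, 1.58 and 1.98 in PD-1, and 0.859, 1.14 and 1.29 in LY500307+PD-1. The LY500307+PD-1 libraries lay below those of PD-1 but not below Control replicate 2. Col20a1 at 0.433 to 1.94 FPKM and Col9a3 at 0.555 to 1.24 overlapped between groups. Among short-chain network collagens, Col8a1, a chain made by vascular cells, was at 26.9, 27.5 and 18.0 FPKM in Control, 22.7, 22.9 and 29.2 in PD-1, and 20.4, 19.1 and 22.5 in LY500307+PD-1. Its LY500307+PD-1 libraries lay below every PD-1 library. Col8a2 stayed at or below 0.326 FPKM, and Col10a1, the chain of hypertrophic cartilage, was at 0.166 in Control replicate 1, 0.0371 in LY500307+PD-1 replicate 1 and 0 elsewhere.

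Transmembrane collagens are anchored in the plasma membrane of the cell that makes them. Col17a1, a hemidesmosome component of basal keratinocytes (chr19:47646344-47692094, minus strand), was at 0.590, 0.597 and 0.818 FPKM in Control, 0.707, 0.652 and 0.468 in PD-1, and 1.15, 3.73 and 1.00 in LY500307+PD-1. Every LY500307+PD-1 library lay above all others, with replicate 2 well beyond its group. Col23a1 was at 0.510, 1.15 and 0.646 FPKM in Control, 0.551, 0.855 and 0.704 in PD-1, and 1.32, 1.98 and 1.00 in LY500307+PD-1, above every PD-1 library but overlapping with Control replicate 2.

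Col13a1, left out of the tests, was at 0.130, 0.659 and 0.0511 FPKM in Control, 0.423, 0.286 and 0.318 in PD-1, and 0.414, 1.32 and 0.266 in LY500307+PD-1, also highest in LY500307+PD-1 replicate 2. Col25a1 stayed at or below 0.175 FPKM. Of the chains outside these classes, Col28a1 was above 0 in 4 libraries, up to 0.258 FPKM in LY500307+PD-1 replicate 2, and Col26a1 reached 0.0146 in Control replicate 1 alone.

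No collagen chain passed the test when PD-1 was compared with Control. In limma's fit across all genes on log2(FPKM + 1), 0 of 25 chains and 0% of the 13990 genes had a Benjamini-Hochberg adjusted p under 0.05. At an unadjusted p under 0.05 there were 0 chains and 2.44% of all genes (1.2% higher and 1.24% lower). The groups did not overlap for 0 chains and 6.68% of all genes (3.21% higher and 3.47% lower). The median log2 fold change was -0.084 over the chains and -0.0061 over all genes tested, with 17 chains and 51.7% of all genes below 0. Leaving out PD-1 replicate 2 put 3 chains, Col1a1, Col5a2 and Col6a2, wholly below Control, and leaving out PD-1 replicate 3 did so for Col4a1 and Col4a2, against 17.7% and 13.4% of all genes that did not overlap. Leaving out PD-1 replicate 1 put Col9a3 above Control (13.3% of all genes did not overlap), leaving out Control replicate 1 put Col16a1 below (16%), and leaving out Control replicate 2 put Col15a1 below (16.3%). Col9a3 entered the tests through the PD-1 libraries kept there, so nothing is read from its place above Control.

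In that comparison the smallest unadjusted p among chains below 0 belonged to Col4a2, at a log2 fold change of -0.16 ± 0.10 (SE), followed by Col5a2 at -0.31 ± 0.29 and Col15a1 at -0.23 ± 0.22. Above 0 they were Col18a1 at 0.16 ± 0.18, Col9a3 (which entered through PD-1) at 0.17 ± 0.19 and Col14a1 at 0.18 ± 0.25. The other chains tested lay between -0.27 (Col6a2) and 0.16 (Col20a1). For Col1a1 the log2 fold change was -0.24 with a 95% interval from -1.14 to 0.67, and for Col3a1 it was -0.073 with an interval from -1.34 to 1.19. These intervals include changes of more than 1 log2 unit downward, and for Col3a1 also upward.

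When LY500307+PD-1 was compared with Control, the type IV chains Col4a1 and Col4a2 were lower in value in every LY500307+PD-1 library than in any Control library, but no chain passed. In limma's fit 0 of 25 chains and 0% of all genes had an adjusted p under 0.05. At an unadjusted p under 0.05 there were 4 chains against 4.01% of all genes. These were Col4a2, Col4a1 and Col15a1 below Control (2.23% of all genes) and Col17a1 above it (1.78%). Groups that did not overlap were found for 4 chains against 7.94% of all genes, namely Col4a1, Col4a2 and Col11a2 below (4.33%) and Col17a1 above (3.61%). Col17a1 is in both counts through the filter described above, which leaves 3 chains in each.

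Col4a2 averaged 67.1 ± 1.58 FPKM in Control and 54.1 ± 1.79 in LY500307+PD-1 (SD, n = 3 each), a log2 fold change of -0.31 ± 0.10 (SE; limma unadjusted p = 0.0141, adjusted p = 1.00). Col4a1 averaged 84.5 ± 9.69 and 67.3 ± 3.45 FPKM, a log2 fold change of -0.32 ± 0.12 (limma unadjusted p = 0.0217, adjusted p = 1.00). With a library left out, the log2 fold change was -0.33 to -0.28 for Col4a2 and -0.37 to -0.23 for Col4a1. As their groups did not overlap, the direction could not turn, so only the size is read from these ranges. Col15a1 averaged 8.09 ± 2.29 and 5.10 ± 1.22 FPKM, a log2 fold change of -0.56 ± 0.22 (limma unadjusted p = 0.0334, adjusted p = 1.00). Col4a1 was no longer at an unadjusted p under 0.05 when Control replicate 1 or LY500307+PD-1 replicate 1 was left out, nor Col15a1 when either of these or Control replicate 3 was.

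Endothelial markers were lower in the same comparison. All 8 tested of 10 listed were below Control in value (50.6% of all genes were), with a median log2 fold change of -0.51. At an unadjusted p under 0.05 there were 6 of them, against 2.23% of all genes lower, and 0 after adjustment in limma's fit. Summed, they ranged over 62.2 to 94.9 FPKM (Control), 53.6 to 74.7 (PD-1) and 41.2 to 53.4 (LY500307+PD-1). Robo4, a receptor of endothelial cells, had the smallest p of the list, at 3.86, 2.45 and 2.83 FPKM in Control and 1.63, 1.51 and 1.87 in LY500307+PD-1. Among 10 pericyte and smooth muscle markers, 7 were tested. At an unadjusted p under 0.05, 3 were below Control (2.23% of all genes) and 1 above (1.78%). The part of these cell types in the values of Col4a1, Col4a2 and Col15a1 was not tested.

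Col17a1 averaged 0.668 ± 0.130 FPKM in Control and 1.96 ± 1.53 in LY500307+PD-1, a log2 fold change of 0.71 ± 0.30 on the log2(FPKM + 1) scale, which understates changes of low genes. Since the 3 libraries that brought it into the tests are those of LY500307+PD-1, no p is given. Without LY500307+PD-1 replicate 2 the log2 fold change was 0.32. Of the keratinocyte markers none passed in limma's fit (4 tested, 2 higher at an unadjusted p under 0.05, against 1.78% of all genes). Those 2, Krt5 and Lor, reached 1 FPKM mainly in LY500307+PD-1 libraries and entered the tests through them, so nothing is read from their p. Krt5, a basal keratin, was at 0.218, 0.0544 and 2.73 FPKM in Control and 11.5, 64.4 and 1.38 in LY500307+PD-1, where replicate 3 overlapped with Control. All 4 tested of 7 listed had a mean above Control, with Krt5 and Lor in that count through the filter. The summed level, which overlapped between groups, was 44.0 to 145 FPKM (Control), 58.4 to 83.1 (PD-1) and 74.8 to 645 (LY500307+PD-1). Of that list Krt1 was listed at 0 in 4 libraries, Dsg3 in 4 and Lor in 2, and the part of these cells in Col17a1 was not tested.

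**Figure D4:**
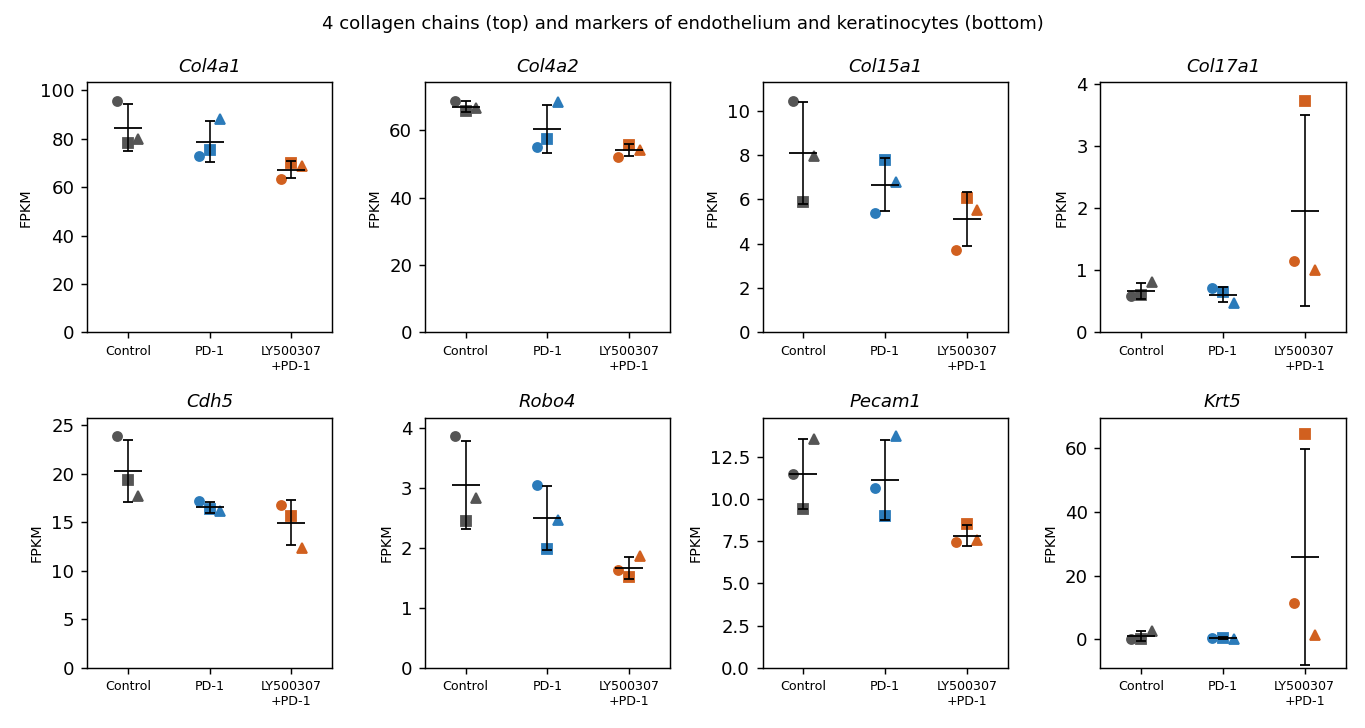
FPKM of Col4a1, Col4a2, Col15a1 and Col17a1 (top) and of the endothelial markers Cdh5, Robo4 and Pecam1 and the keratinocyte marker Krt5 (bottom) in each library; shapes are replicates 1 (circle), 2 (square) and 3 (triangle), and black bars are the mean and SD of 3 libraries. Col4a1 and Col4a2 lie lower in all LY500307+PD-1 libraries than in Control, and Col17a1 and Krt5 are highest in LY500307+PD-1 replicate 2, at 3.73 and 64.4 FPKM.

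The 8 fibrillar chains tested had a median log2 fold change of -0.015 in that comparison, from -0.36 (Col11a2) to 0.40 (Col5a3). Col1a1 was at 0.0020 ± 0.40, Col1a2 at -0.032 ± 0.38, Col3a1 at -0.10 ± 0.56 and Col5a2 at -0.19 ± 0.29 (SE). The intervals were wide, from -0.90 to 0.91 for Col1a1. Of the other chains above 0, Col23a1 was at 0.46 ± 0.21 and Col18a1 at 0.33 ± 0.18 (limma unadjusted p = 0.0956). The other chains outside the fibrillar and type IV classes lay between -0.19 (Col8a1) and 0.27 (Col6a3), and Col4a5 was at -0.26 ± 0.41. Over all 25 chains the median was -0.032, against -0.0022 over all genes tested, with 15 chains and 50.6% of all genes below 0.

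Fibrillar values moved with single libraries. Col1a2, Col3a1 and Col5a2 were above Control without LY500307+PD-1 replicate 1, at 0.15, 0.17 and 0.054, and Col1a1 was below it, at -0.34, without replicate 2 of LY500307+PD-1 and, at -0.091, when the third Control library was left out. Without LY500307+PD-1 replicate 2, which stood apart in markers of keratinocytes, muscle and fat, the median over the 25 chains was -0.13, and 11 chains did not overlap with Control, against 16.8% of all genes. Col1a1, Col1a2, Col3a1, Col5a2, Col6a2, Col11a2, Col15a1, Col4a1 and Col4a2 were then below Control, and Col16a1 and Col17a1 above it. At an unadjusted p under 0.05 there were 4, namely Col5a2, Col15a1, Col4a1 and Col4a2, against 3.85% of all genes, and none passed after adjustment in limma's fit. Without Control replicate 2 the groups did not overlap for 9 chains (20.5% of all genes), with Col17a1 and Col23a1 among them. The count at an unadjusted p under 0.05 was 1 (Col4a2; 3.18% of all genes) when Control replicate 1 was left out and 2 (Col4a2 and Col17a1; 3.71%) when LY500307+PD-1 replicate 1 was. It rose to 5 (5.99%), with Col23a1 among them, once Control replicate 2 was dropped. Dropping LY500307+PD-1 replicate 3 gave 6 (4.57%), with Col17a1 and Col23a1 among them. Col17a1 and Col23a1 are in these counts through the filter described above, so their place there is no support.

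**Figure D5:**
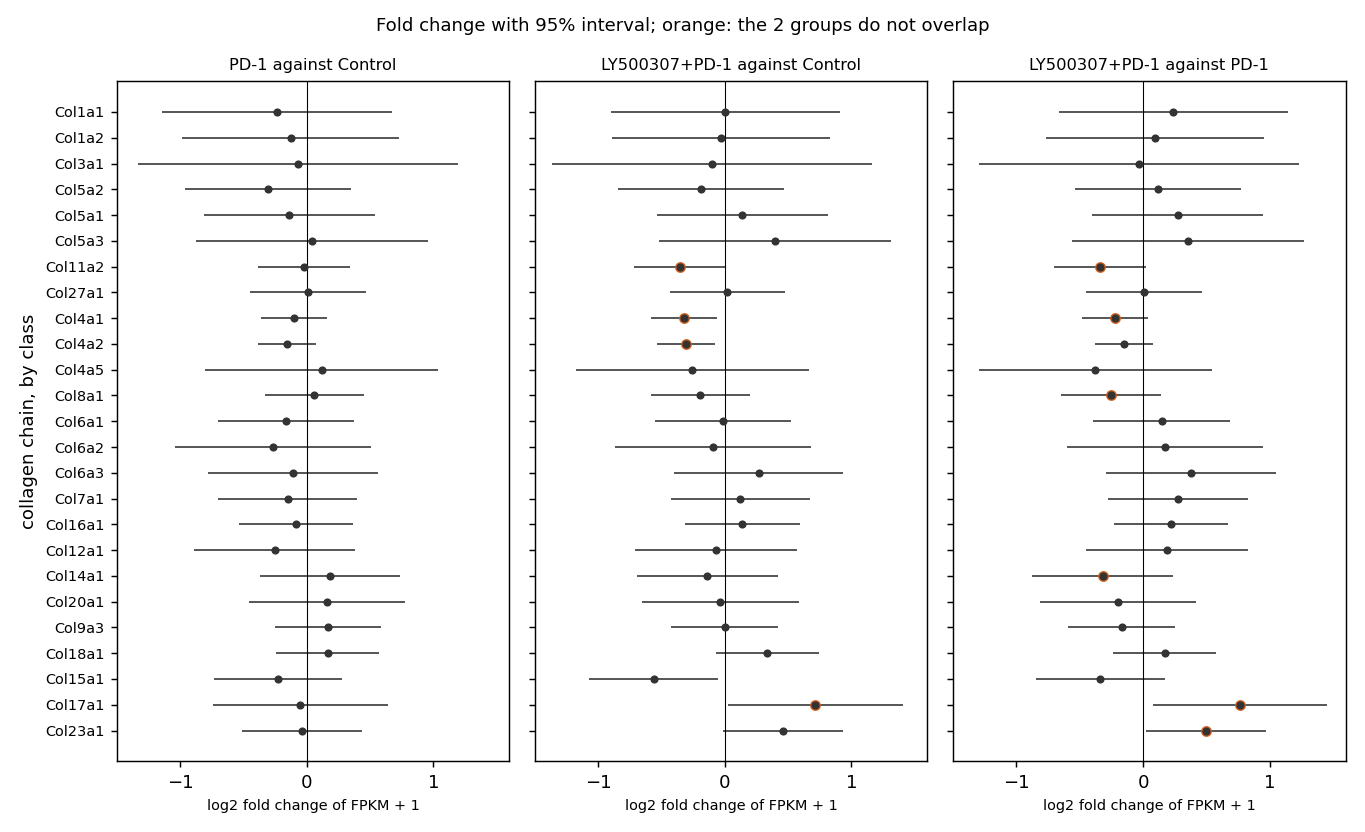
Log2 fold change of FPKM + 1 for each of the 25 tested chains, with 95% intervals from limma, in each of the 3 comparisons; orange rings mark chains whose groups did not overlap. Intervals of Col4a1, Col4a2 and Col15a1 lie below 0 in the middle panel; Col17a1 and Col23a1, farthest to the right in the right panel, entered the tests through LY500307+PD-1.

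LY500307+PD-1 was also compared directly with PD-1, the test of what differed once LY500307 was added. No chain passed, with 0 of 25 and 0% of all genes at an adjusted p under 0.05 in limma's fit. Col17a1 and Col23a1 were higher at an unadjusted p under 0.05, 2 chains against 2.84% of all genes (1.19% higher), and 0 chains were lower, against 1.66%. Groups that did not overlap were found for 6 chains against 7.6% of all genes. They were Col17a1 and Col23a1 above (3.54% of all genes) and Col4a1, Col8a1, Col11a2 and Col14a1 below (4.06%). Col17a1 and Col23a1 entered these counts through LY500307+PD-1, so nothing is read from them.

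Col17a1 was at a log2 fold change of 0.77 ± 0.30 (SE), from 0.609 ± 0.125 FPKM in PD-1 (SD, n = 3). Col23a1, a chain shed from the cell surface, went from 0.703 ± 0.152 to 1.44 ± 0.499 FPKM, a log2 fold change of 0.50 ± 0.21. Both were lower without LY500307+PD-1 replicate 2, at 0.37 and 0.34. Neither was at an unadjusted p under 0.05 without that library, PD-1 replicate 1 or PD-1 replicate 3. Col6a3 followed at 0.38 ± 0.30.

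Below PD-1 were Col11a2 at -0.34 ± 0.16 (limma unadjusted p = 0.0647), Col4a1 at -0.22 ± 0.12 (limma unadjusted p = 0.0879) and Col15a1 at -0.34 ± 0.22. Col4a2 was at -0.15 ± 0.10, with overlapping groups. The 8 tested endothelial markers were again all below 0, with a median of -0.41. Of these, 4 were at an unadjusted p under 0.05, against 1.66% of all genes lower. The other chains tested lay between -0.38 (Col4a5) and 0.35 (Col5a3). The median over the 25 chains was 0.12, against 0.0040 over all genes tested, with 10 chains and 49% of all genes below 0. It moved to -0.11 without LY500307+PD-1 replicate 2, to -0.091 without PD-1 replicate 1 and to 0.33 without PD-1 replicate 2. Without PD-1 replicate 2, 10 chains did not overlap, against 21.9% of all genes, with Col17a1 and Col23a1 among them. Leaving out a library can only keep or raise that count. Since the 2 comparisons with Control share its libraries, and those with LY500307+PD-1 share that group, their values are not independent.

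Genes that make, bind or accompany collagen were listed as well. Of 34 collagen biosynthesis genes in the table, 31 were tested and none passed in any comparison in limma's fit. P4hb, the beta subunit of prolyl 4-hydroxylase, was the most abundant at 248 to 297 FPKM. Between the treated groups no member was at an unadjusted p under 0.05 (2.84% of all genes were). Adamts14, a protease that removes the N-terminal propeptide of fibrillar procollagens, had the smallest p of the list in both comparisons with Control. It was the only member of 31 at an unadjusted p under 0.05, against 2.44% of all genes for PD-1 and 4.01% for LY500307+PD-1. Its values are therefore given as a description. It was at 3.69, 4.52 and 3.63 FPKM in Control, 6.55, 10.1 and 5.27 in PD-1, and 7.67, 8.64 and 8.04 in LY500307+PD-1, above Control in all 6 treated libraries. Its log2 fold change was 0.71 ± 0.20 in PD-1 (limma unadjusted p = 0.00557, adjusted p = 1.00) and 0.89 ± 0.20 in LY500307+PD-1 (limma unadjusted p = 0.00146, adjusted p = 1.00), both against Control.

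Of 11 collagen receptors 9 were tested, and none was at an unadjusted p under 0.05 in any comparison. Itgb1, the beta subunit of all collagen-binding integrins, was at 173 to 232 FPKM. Of 16 partners of type IV collagen in basement membrane 13 were tested, with none at an unadjusted p under 0.05 between PD-1 and Control. Between LY500307+PD-1 and Control 2 were, both lower in value, against 2.23% of all genes. Lama4, a laminin chain of vessel walls, was at a log2 fold change of -0.42 ± 0.16 (limma unadjusted p = 0.025). Nid2, a nidogen that links laminin to type IV collagen, was at -0.38 ± 0.15. Against PD-1 only Nid2 was at an unadjusted p under 0.05, against 1.66% of all genes lower. Its log2 fold change was -0.48 ± 0.15 (limma unadjusted p = 0.00977), from 6.46, 7.51 and 9.34 FPKM in PD-1 to 5.09, 5.29 and 5.26 in LY500307+PD-1. Of 17 other fibril matrix genes 14 were tested and none was at an unadjusted p under 0.05, with median log2 fold changes of -0.18 for PD-1 and -0.16 for LY500307+PD-1, each against Control, and 0.026 between the treated groups. The most abundant of these was Fn1, fibronectin, at 309 to 586 FPKM.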

How the data were processed

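RNA was sequenced in 9 libraries, grouped by sample title. The treatment labels of PD-1 replicates 2 and 3 carry those numbers in the treatment's own name. Per the labels' protocols, ribosomal RNA was removed from total RNA before libraries were prepared with a stranded kit. The authors deposited 1 table, whose values are taken as FPKM, a unit inferred from the values. Per the submitters' processing notes, CASAVA 1.8, Bowtie2, DESeq2 and build mm9 were used, with no role or order given. Identifiers were matched without version to GENCODE M21 on GRCm38, which gave symbols and positions (52403 of 52550 rows); the identifiers are later than mm9. The sums of FPKM per library were 348764 to 370214. Low values fell on steps that correspond to between 16480000 and 17400000 counting units per library, but only 40.6% to 43.0% lay within 0.02 of a whole step, so whole reads were not recovered and count tests were not run.

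Genes that reached 1 FPKM in 3 or more libraries were fitted on log2(FPKM + 1) with limma 3.58.1 (R 4.3.3; trend and robust moderation; statmod 1.5.0), with all 9 libraries and no covariate, and Benjamini-Hochberg adjustment over all genes. The script was tested on simulated data. Correlations and figures used Python 3.11.15, numpy 2.4.6, pandas 2.3.3, scipy 1.17.1 and matplotlib 3.10.9. Values were named for the most abundant chains of each class (4 fibrillar, 4 type IV, 3 in other classes) and the 3 chains with the smallest p in each direction; Robo4, Krt5 and the like are the most abundant member or that with the smallest p of their list. Krt1, Dsg3, Lor, Epcam, Cldn7, Acan, Matn1 and Sp7 were chosen after their values were seen. Members and lists were chosen with earlier results of these data known. Alternatives were quantile normalization, no filter, a pseudocount of 0.1, a fit to the 6 libraries compared alone, a block for the replicate number, and each library left out in turn.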

Additional observations from a re-analysis of the deposited data

How the results depend on the processing

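With 3 libraries a group, precision is limited by the spread between libraries; the depth is known only relative to a step. No collagen chain passed adjustment in limma's fit under any alternative run (0 in each comparison also when 1 library was left out). Leaving out a library gave 0 to 1 genes called in PD-1 against Control, 0 to 2 in LY500307+PD-1 against Control and 0 to 2 in LY500307+PD-1 against PD-1; other alternatives gave 0. The counts of chains at an unadjusted p under 0.05 or without overlap were added after seeing the data. With a library left out, the former ranged from 0 to 1, 1 to 6 and 0 to 2 in that order (2.24% to 3.3%, 3.18% to 5.99% and 2.14% to 4.75% of all genes). The latter ranged from 0 to 3, 5 to 11 and 6 to 10 (13.3% to 17.7%, 15% to 20.5% and 14% to 21.9%). A count without overlap can only stay or rise when a library is left out. Col17a1 and Col23a1, which entered through LY500307+PD-1, were not removed from these ranges, so nothing is read from their part. Between the treated groups the count at an unadjusted p under 0.05 was 1 with a pseudocount of 0.1 and 1 with only the 6 libraries compared, against 2. The cause was not tested, and the share of all genes was not taken under those settings. The chains' median log2 fold change ranged from -0.19 to 0.079, -0.13 to 0.074 and -0.11 to 0.33. Of 59 results for single chains, 33 turned direction when 1 library was left out, and 1 under another setting (Col1a1 in LY500307+PD-1 against Control, -0.051 with quantile normalization; the cause was not tested). The ranges of the former, in log2 units, were in PD-1 against Control Col1a1 -0.65 to 0.14, Col1a2 -0.51 to 0.27, Col3a1 -0.54 to 0.52, Col4a5 -0.11 to 0.47, Col6a1 -0.38 to 0.037, Col6a3 -0.30 to 0.12, Col18a1 -0.0014 to 0.32, Col7a1 -0.36 to 0.10, Col16a1 -0.25 to 0.0091, Col14a1 -0.10 to 0.34, Col8a1 -0.13 to 0.16, Col17a1 -0.096 to 0.012 and Col23a1 -0.15 to 0.11. For LY500307+PD-1 against Control they were Col1a1 -0.34 to 0.19, Col1a2 -0.32 to 0.15, Col3a1 -0.57 to 0.17, Col5a2 -0.52 to 0.054, Col4a5 -0.49 to 0.13, Col6a1 -0.23 to 0.18, Col6a2 -0.43 to 0.18, Col6a3 -0.0086 to 0.50, Col7a1 -0.049 to 0.38, Col16a1 -0.032 to 0.31, Col12a1 -0.36 to 0.14 and Col14a1 -0.42 to 0.019. Between LY500307+PD-1 and PD-1 they were Col1a1 -0.14 to 0.66, Col1a2 -0.30 to 0.48, Col3a1 -0.63 to 0.44, Col5a2 -0.21 to 0.36, Col4a5 -0.60 to 0.013, Col6a1 -0.049 to 0.33, Col6a2 -0.17 to 0.48 and Col12a1 -0.042 to 0.40. The correlation of Col6a1 and Col6a2 missed the threshold with quantile normalization (r = 0.679, exact permutation adjusted p = 0.0537) and without 2 libraries (r = 0.65), as did that of Col5a1 and Col5a2 without 2 libraries (r = 0.748); fewer libraries entered those 2. Over all genes, deviations of same-numbered libraries of different groups gave r = -0.12 to 0.27 (3 of 9 pairs over 0.1; 4 of 9 libraries correlated best with their own number). Over the collagen chains they gave r = -0.33 to 0.79, with 7 of 9 pairs over 0.1 and both pairs of Control replicate 1 below 0. As not every pair was over 0.1, the numbers were not taken to pair the libraries. With the replicate number as a block, 0 genes were called in each comparison and 0, 4 and 3 chains were at an unadjusted p under 0.05. The share of all genes was not taken with the block, and chains that entered through LY500307+PD-1 were not removed, so nothing is read from these counts.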
